A study of Ciona robusta with 3 samples.

Results

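Cardiopharyngeal progenitors of Ciona robusta embryos treated with CRISPR/Cas9 against Gata4/5/6 were compared with control progenitors by single-cell RNA-seq at 12 h post-fertilization (hpf). The comparison rests on 145 cells, 100 control and 45 Gata4/5/6 CRISPR, of 869 cell barcodes in the CRISPR libraries and 3438 in the whole series. Gata4/5/6 (Gata5-KY.Chr6.625) is the GATA family gene of the tunicate heart lineage, and the comparison asks which transcripts of the progenitors depend on it.

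GATA4, GATA5 and GATA6 are zinc finger transcription factors that bind GATA motifs and act in heart formation in vertebrates and insects. In Ciona, the B7.5 blastomeres give rise to the anterior tail muscle (ATM) and to the trunk ventral cells (TVC), which migrate, divide asymmetrically and give rise to heart and pharyngeal muscle. Besides Gata4/5/6, these progenitors express the transcription factors Hand, Foxf and Nk4/Nkx2-5.

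B7.5 lineage cells were marked with Mesp > GFP, fixed in methanol, sorted by FACS and profiled with the 10x Genomics 3′ kit. The 2 deposited libraries, repeats 1 and 2, each pool 4 conditions. These are control (Tyrosinase, or Tyr, CRISPR), Gata4/5/6 CRISPR, Foxf CRISPR and Foxtun4 CRISPR, and in each the embryos carried their own pair of reporter sample barcodes. Plasmids are inherited mosaically after electroporation, Cas9 was expressed from the Mesp enhancer as the study describes for its CRISPR screen, and eggs of several animals were mixed. Nothing in the sources used here says that the repeats were separate electroporations, so p-values measure the spread between these libraries, which may be technical.

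Genes carry the names of their best vertebrate matches, and the roles given are those known in vertebrates. Transcripts were counted by unique molecular identifiers (UMIs), random tags that mark each captured molecule. Assignment to a condition took a UMI of each of its 2 barcodes and 75% or more of all UMIs that the cell had from mapped barcodes. The pairs were read from a colour key of the study's Appendix, and every value below rests on that reading. A cell counted as a progenitor when 4 muscle genes (Myl1-KY.Chr1.2008, Myl1-KY.Chr1.2010, Myl1-KY.Chr1.2011 and Smyd1-KY.Chr6.594) took under 1% of its gene UMIs and 3 progenitor genes (Nkx2-5-KY.Chr8.909, Hand2-KY.Chr1.2070 and Enpp3-KY.Chr2.1038) summed to at least 3 UMIs. Control progenitors numbered 33 in library 1 and 67 in library 2, and Gata4/5/6 CRISPR progenitors 11 and 34. Of assigned cells, progenitors were 45.2% (95% exact interval 33.5 to 57.3) and 39.6% (32.2 to 47.4) in control and 26.8% (14.22 to 42.9) and 31.2% (22.7 to 40.8) in Gata4/5/6 CRISPR. The share was lower in Gata4/5/6 CRISPR in both libraries, but the intervals overlapped, and with 2 libraries a side a two-sided exact permutation test cannot go below p = 0.333. Intervals here cover counting error alone.

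UMIs were summed over the progenitors of each library and condition, which gave 622877 and 1195537 UMIs for control and 203776 and 604529 for Gata4/5/6 CRISPR, with medians of 17548 to 20121 UMIs per cell. Levels are CPM, the UMIs of a gene scaled to 1000000 UMIs per sum. The genes that set the gate are given as levels alone. Nkx2-5 stood at 745 and 728 CPM in control and 677 and 721 in Gata4/5/6 CRISPR, and Hand2 at 2593 and 2503 against 2252 and 2605. All 5 progenitor markers that the gate did not use were detected in all 4 sums. The 13 ATM markers summed to 8345 and 6474 CPM in control and 8794 and 7181 in Gata4/5/6 CRISPR, which overlap. In tail muscle cells of the same conditions the sums were 83963 to 85536 CPM. The 13 include the 4 muscle genes that set the gate and the tail muscle class, so part of this gap is built in. Without those 4 the sums were 6199 and 4672 CPM in control and 6595 and 5328 in Gata4/5/6 CRISPR, which also overlap. Tail muscle cells then had 30843 to 32378 CPM. The 6 markers of other tissues summed to 747 and 816 against 707 and 736 CPM, and of these the mesenchyme markers Bhlha15 and C6 had at most 4.18 CPM. The mesenchyme marker Twist1-KY.Chr5.357 had 40.1 and 7.53 CPM in control and 0 and 3.31 in Gata4/5/6 CRISPR, so its control sums were the higher ones. Myf5, which defines muscle, had at most 9.815 CPM. What part other cells had in the results was not tested.

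Cell barcodes were shared between the libraries in 7 cases, with UMI totals in library 2 at 1.27 to 1.43% of those in library 1. No control or Gata4/5/6 CRISPR progenitor was among them, but 1 Foxf CRISPR progenitor of library 1 was. It gave 17.7% of the UMIs of its sum and 328 of the 335 UMIs of the epidermal gene Epi1. That sum enters the fit through the shared estimate of spread, so calls are given with and without the shared barcodes.

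With all 4 conditions in the fit, 2 of 6744 genes were called lower in Gata4/5/6 CRISPR progenitors (0.0297%, edgeR quasi-likelihood, Benjamini-Hochberg adjusted p below 0.05 with a log2 fold change beyond 0.5 either way) and none was called higher. They were Depdc1b-KY.Chr2.2230 and KY.Chr5.531. At an unadjusted p under 0.05, 103 genes (1.53%) were lower and 89 (1.32%) higher, and DESeq2 called 3 lower (0.0445%) and 0 higher. Without the shared barcodes 10 genes were called, 9 lower (0.134%) and 1 higher (0.0149%), and both of the calls above were among them. With only the control and Gata4/5/6 sums in the fit, 16 were called, 14 lower (0.219%) and 2 higher (0.0313%), and with the library as a block in that fit 31 lower (0.485%) and 24 higher (0.376%). With no filter on low counts 36 were lower (0.284%) and 17 higher (0.134%), and with muscle genes under 0.5% of UMIs 12 lower (0.183%) and 3 higher (0.0457%). Leaving out any 1 of the control or Gata4/5/6 sums ended both calls. The 1 gene called in any of those fits (0.0139%, without library 2 of Gata4/5/6 CRISPR) was Tnnc1-KY.Chr6.34, named after its values were seen.

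Transcripts of the targeted gene were fewer in Gata4/5/6 CRISPR progenitors in both libraries. Gata4/5/6 had 226 and 240 CPM in control (141 and 287 UMIs) and 113 and 67.8 CPM in Gata4/5/6 CRISPR (23 and 41 UMIs). Both Gata4/5/6 CRISPR sums lay below both control sums. The log2 fold change was -1.44 ± 0.26 (SE, n = 2 sums a side), which missed the threshold in the fit of all 8 sums (edgeR adjusted p = 0.152) and passed it without the shared barcodes at -1.49 (adjusted p = 0.0114). Counts at the 3′ end do not measure the lesion, so this level is no check of the editing itself.

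Cell by cell, fewer progenitors held a Gata4/5/6 UMI. The share was 69.7% (23 of 33, 51.3 to 84.4) and 73.1% (49 of 67, 60.9 to 83.2) in control, and 36.4% (4 of 11, 10.93 to 69.2) and 32.4% (11 of 34, 17.4 to 50.5) in Gata4/5/6 CRISPR. Expected shares at a fixed 5000 UMIs per cell were 56.9% and 57.8% against 29.0% and 20.2%, with 1 control and 1 Gata4/5/6 CRISPR cell too shallow to enter. In tail muscle cells, which should lack the transcript, the share was 11.54% and 6.1% in control and 0% and 1.64% in Gata4/5/6 CRISPR, although those cells are deeper, with medians of 31219 to 35320 UMIs. The 0% is 0 of 20 cells, which allows a share of cells with a UMI of up to 15% by a floor of 3 counts and up to 16.84% by the exact interval. The remaining Gata4/5/6 UMIs were spread over 15 cells, none with more than 7.

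Depdc1b, a DEP and RhoGAP domain protein that the study connects to oriented division of the progenitors, was lower as well. It had 597 and 775 CPM in control and 240 and 268 CPM in Gata4/5/6 CRISPR. The sums did not overlap. The log2 fold change was -1.41 ± 0.18 (edgeR adjusted p = 0.0217, n = 2 a side), and it was called in 16 of the 21 fits run across settings. These fits share most of their data and some are identical, so that count is no measure of robustness. A UMI of Depdc1b was still found in 90.9% (10 of 11) and 88.2% (30 of 34) of Gata4/5/6 CRISPR progenitors, against 90.9% (30 of 33) and 94.0% (63 of 67) in control. In tail muscle, where the gene was low, the share ran from 3.85% to 50%. At 5000 UMIs per cell the expected shares were 70.4% and 64.7% in Gata4/5/6 CRISPR against 82.7% and 86.6% in control. The level per cell was lower too, with medians of 2.886 and 2.164 UMIs per 10000 in Gata4/5/6 CRISPR and 5.85 and 7.29 in control. Its relative Depdc1a-KY.Chr5.816 did not pass the test, at 108 and 106 CPM in control and 118 and 119 in Gata4/5/6 CRISPR (0.16 ± 0.22).

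KY.Chr5.531, a gene model with no name in the sources used here, showed the largest change of the calls. It had 241 and 407 CPM in control (150 and 486 UMIs) and 14.7 and 14.89 CPM in Gata4/5/6 CRISPR (3 and 9 UMIs). The ratio of control to Gata4/5/6 CRISPR was 23.6 (counting interval 13.4 to 45.8), and the log2 fold change was -4.42 ± 0.55 (edgeR adjusted p = 0.0217). In tail muscle the gene had 22.7 and 10.5 CPM in control and 14.5 and 11 in Gata4/5/6 CRISPR, so Gata4/5/6 CRISPR progenitors lay within the tail muscle range. The control UMIs were uneven over cells, with 20 of 33 and 37 of 67 cells holding any and up to 81 in 1 cell. At least 1 UMI was found in 27.3% and 17.6% of Gata4/5/6 CRISPR progenitors and in 25.6% to 40.0% of tail muscle cells, so the former lies at the level of background. At 5000 UMIs per cell the shares were 7.66% and 6.92% against 5.16% to 11.33%.

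**Figure D1:**
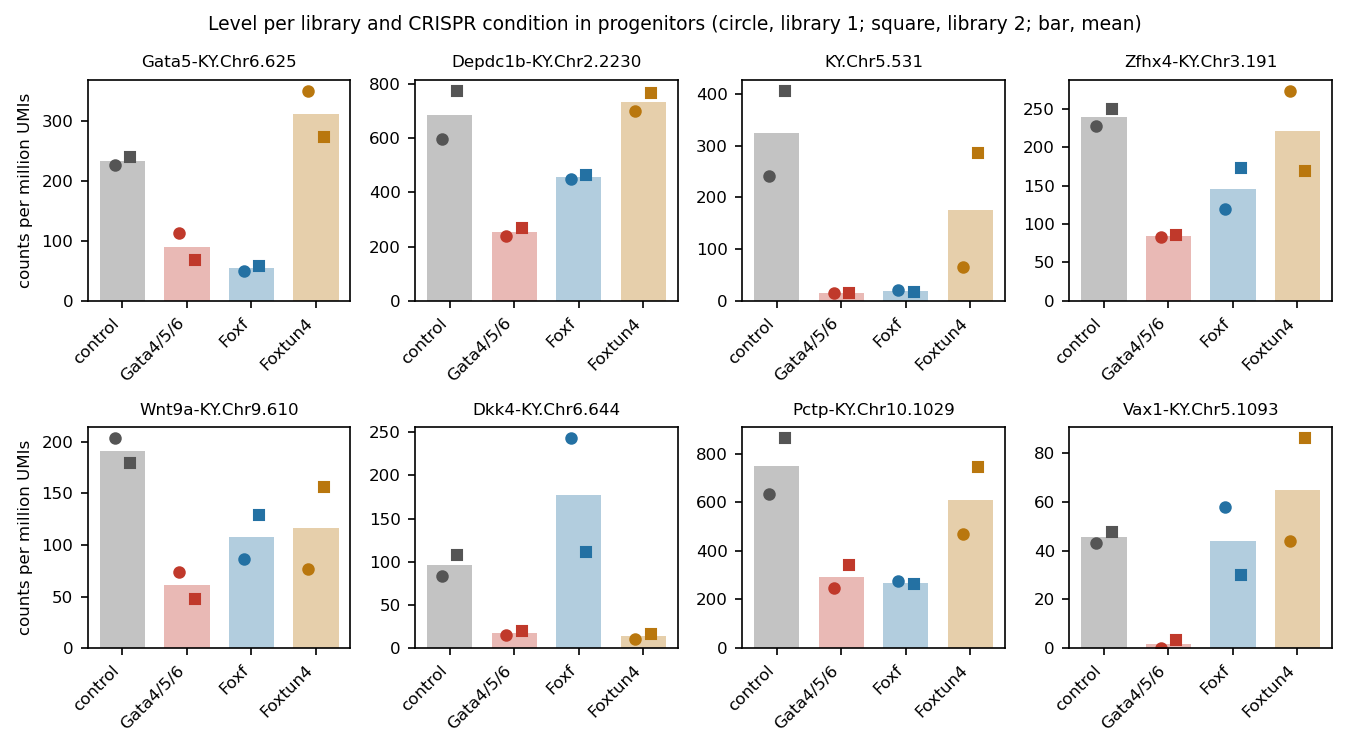
CPM (y axis) of 8 genes in progenitors, by CRISPR condition on the x axis, with library 1 as circles, library 2 as squares and the mean as a bar from 0. Both Gata4/5/6 CRISPR sums lie below both control sums in all 8 panels, as for Depdc1b at 240 and 268 against 597 and 775. The 8 are the targeted gene and lower genes that were called or had small p, so this pattern is partly built in by the choice. Over all genes tested, 18.6% show it.

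**Figure D2:**
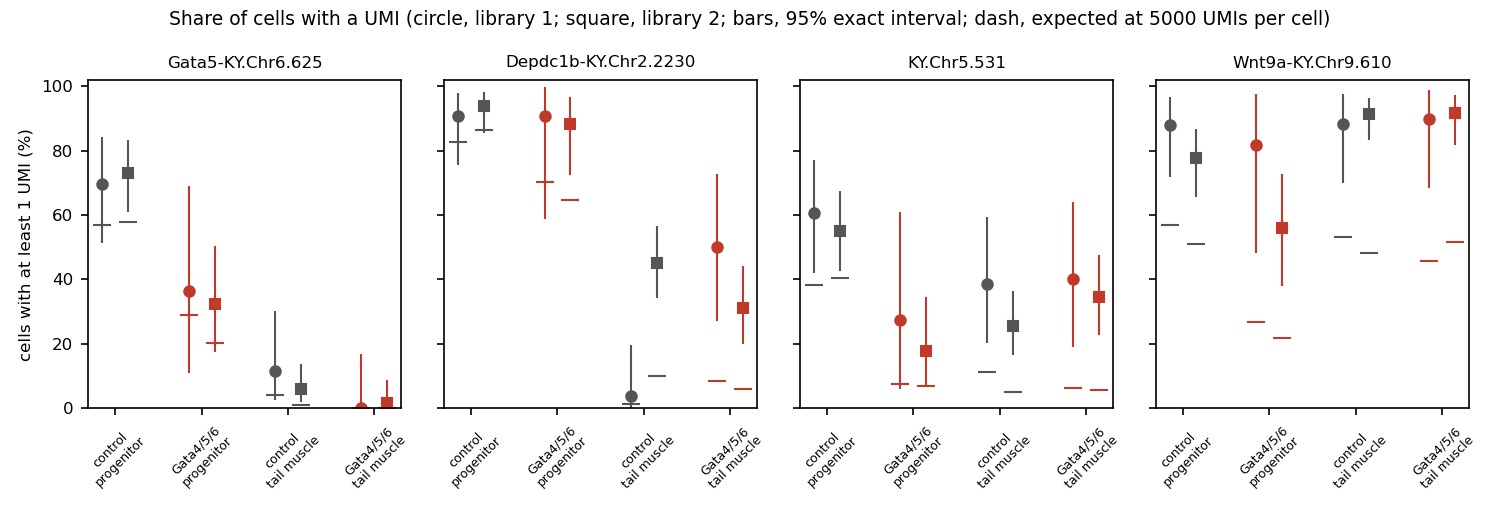
Percent of cells with at least 1 UMI of Gata5, Depdc1b, KY.Chr5.531 and Wnt9a in progenitors and tail muscle, by library (circle, library 1; square, library 2), with 95% exact intervals as bars and the share expected at 5000 UMIs per cell as a dash. Gata5 is found in 69.7% and 73.1% of control and 36.4% and 32.4% of Gata4/5/6 CRISPR progenitors, while Depdc1b is found in 88.2 to 94.0% of progenitors of both conditions.

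Besides Gata4/5/6, 3 transcription factors of the cardiac and lineage regulator list were lower in both libraries at an unadjusted p under 0.05. Zfhx4-KY.Chr3.191, a zinc finger homeobox factor, had 228 and 250 CPM in control and 83.4 and 86.0 in Gata4/5/6 CRISPR (-1.48 ± 0.26, edgeR adjusted p = 0.142, and 0.0121 without the shared barcodes). Vax1-KY.Chr5.1093, a homeobox factor, had 27 and 57 UMIs in control and 0 and 2 in Gata4/5/6 CRISPR. The ratio of control to Gata4/5/6 CRISPR was 18.7 (counting interval 5.01 to 157), and the adjusted p was 0.142, or 0.0205 without the shared barcodes. Foxn3-KY.Chr3.371, a forkhead factor, had 353 and 355 against 216 and 218 CPM (-0.69 ± 0.18, adjusted p = 0.807). In all 3 the control and Gata4/5/6 sums did not overlap.

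The regulators that place these cells in the lineage differed less. Foxf (Foxf1-KY.Chr3.1005) had 572 and 460 CPM in control and 383 and 399 in Gata4/5/6 CRISPR (-0.38 ± 0.25, edgeR adjusted p = 1.0). The forkhead gene Foxtun4 (Foxl1-KY.Chr5.382) had 323 and 291 against 353 and 299 CPM (0.09 ± 0.22), and Hand1-KY.Chr14.359 had 94.7 and 95.4 against 78.5 and 122 CPM (0.16 ± 0.30). Ets1-KY.Chr10.606, a nuclear effector of FGF signalling, and Meis1-KY.Chr10.902, a homeobox cofactor, stood at -0.06 ± 0.16 and -0.06 ± 0.22. Zfp36l1-KY.Chr4.13, an mRNA decay factor and the most abundant member, had 2747 and 2895 against 1968 and 2445 CPM (-0.34 ± 0.17, adjusted p = 1.0). Of the 11 tested members of this list, which holds Gata4/5/6 itself, 0 were called in either direction (4 lower and 0 higher at an unadjusted p under 0.05), and 3 were called lower without the shared barcodes. The groups did not overlap, with Gata4/5/6 CRISPR lower, for 7 of the 11, against 18.6% of all genes. Members and lists, this list included, were chosen with earlier results of these data known. Such shares and medians therefore describe the lists and are no test of them. The median log2 fold change was -0.34, against -0.0038 over all genes tested. It was -0.20 without library 1 of Gata4/5/6 CRISPR, -0.21 without library 1 of control and -0.21 without library 1 of both.

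Members of the Wnt pathway were mostly below control. Wnt9a-KY.Chr9.610, a secreted ligand, had 204 and 179 CPM in control and 73.6 and 48.0 in Gata4/5/6 CRISPR (-1.73 ± 0.32, edgeR adjusted p = 0.169, and 0.0114 without the shared barcodes). The Wnt antagonist Dkk4-KY.Chr6.644 had 83.5 and 108 CPM against 14.7 and 19.9 CPM (-2.37 ± 0.47, adjusted p = 0.215, and 0.0053 without the shared barcodes). The receptor tyrosine kinase Ror2-KY.Chr8.672 had 414 and 516 against 324 and 301 CPM (-0.57 ± 0.18, adjusted p = 1.0), and the nuclear effector Tcf7l2-KY.Chr6.60 had 85.1 and 162 against 73.6 and 64.5 CPM (-0.88 ± 0.34, adjusted p = 1.0). In each of the 4 genes both Gata4/5/6 CRISPR sums lay below both control sums.

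Among the Frizzled receptors, Fzd8-KY.Chr1.767 had 27 UMIs in control and 3 in Gata4/5/6 CRISPR over both libraries. The ratio of control to Gata4/5/6 CRISPR was 4.001 (counting interval 1.23 to 20.6). Fzd8 was named after its values were seen, and the interval covers counting error alone. Fzd10-KY.Chr12.842 stood at -0.07 ± 0.30. Fzd4-KY.Chr6.487, the most abundant of the Frizzled receptors, had 361 and 438 against 255 and 319 CPM (-0.45 ± 0.21). Ror1-KY.Chr8.812 overlapped, at 458 and 410 against 348 and 427 CPM. Of 18 tested members 0 were called in either direction, and 4 were lower and 0 higher at an unadjusted p under 0.05. The fold change was below 0 for 16 of the 18, against 3406 of 6744 genes tested. The groups did not overlap on the lower side for 10 (18.6% over all genes), and the median was -0.43. The 2 members above 0 were Sfrp5-KY.Chr1.1207, a secreted antagonist (0.24 ± 0.23), and Dvl3-KY.Chr7.152, a cytoplasmic transducer (0.07 ± 0.23). The median moved to -0.24 when progenitor marker UMIs were not asked for.

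Dkk4 depended on the gate. When cells of low muscle content entered without progenitor marker UMIs, its log2 fold change was 0.99 (adjusted p = 1.0). Such cells were 9 in control and 6 in Gata4/5/6 CRISPR, and they held 16 and 187 Dkk4 UMIs. In the 6 Gata4/5/6 CRISPR cells these UMIs came from 2 cells of each library, at 523 and 2515 CPM over the 3 cells of a library. With muscle genes allowed up to 2% and the progenitor markers still asked for, the value was -0.94 (adjusted p = 1.0). The value thus depended on the limit for muscle genes as well as on the markers. Within the gate, 14 of 33 and 15 of 67 control progenitors held a Dkk4 UMI. There 1 cell had 24 of 52 UMIs in library 1 and 1 cell 35 of 129 in library 2. In Gata4/5/6 CRISPR, 1 of 11 and 6 of 34 progenitors held a Dkk4 UMI.

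Of the BMP and TGF-beta list, 10 of 15 tested members had values above 0, against 3338 of 6744 genes tested. The BMP antagonist Nog-KY.Chr12.723 had 9.63 and 11.7 CPM in control (6 and 14 UMIs) and 68.7 and 33.1 in Gata4/5/6 CRISPR (14 and 20 UMIs). Both Gata4/5/6 CRISPR sums were higher (2.07 ± 0.47, edgeR adjusted p = 0.469). The ligand Bmp2-KY.Chr4.449 had 186 and 231 against 236 and 303 CPM (0.40 ± 0.23), and Smurf1-KY.Chr4.280, an E3 ubiquitin ligase that acts on the pathway, 686 and 678 against 805 and 695 (0.15 ± 0.20). The receptors Acvr2b-KY.Chr1.992 and Acvr1-KY.UAContig1.126 stood at -0.16 ± 0.22 and -0.06 ± 0.33. None (0) of the 15 was called in either direction, 0 were lower and 1 higher at an unadjusted p under 0.05, and 6 did not overlap on the higher side, against 15.1% of all genes. The median was 0.27, and it was 0.030 without library 1 of Gata4/5/6 CRISPR, 0.034 without library 1 of both conditions and 0.41 without library 2 of control.

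**Figure D3:**
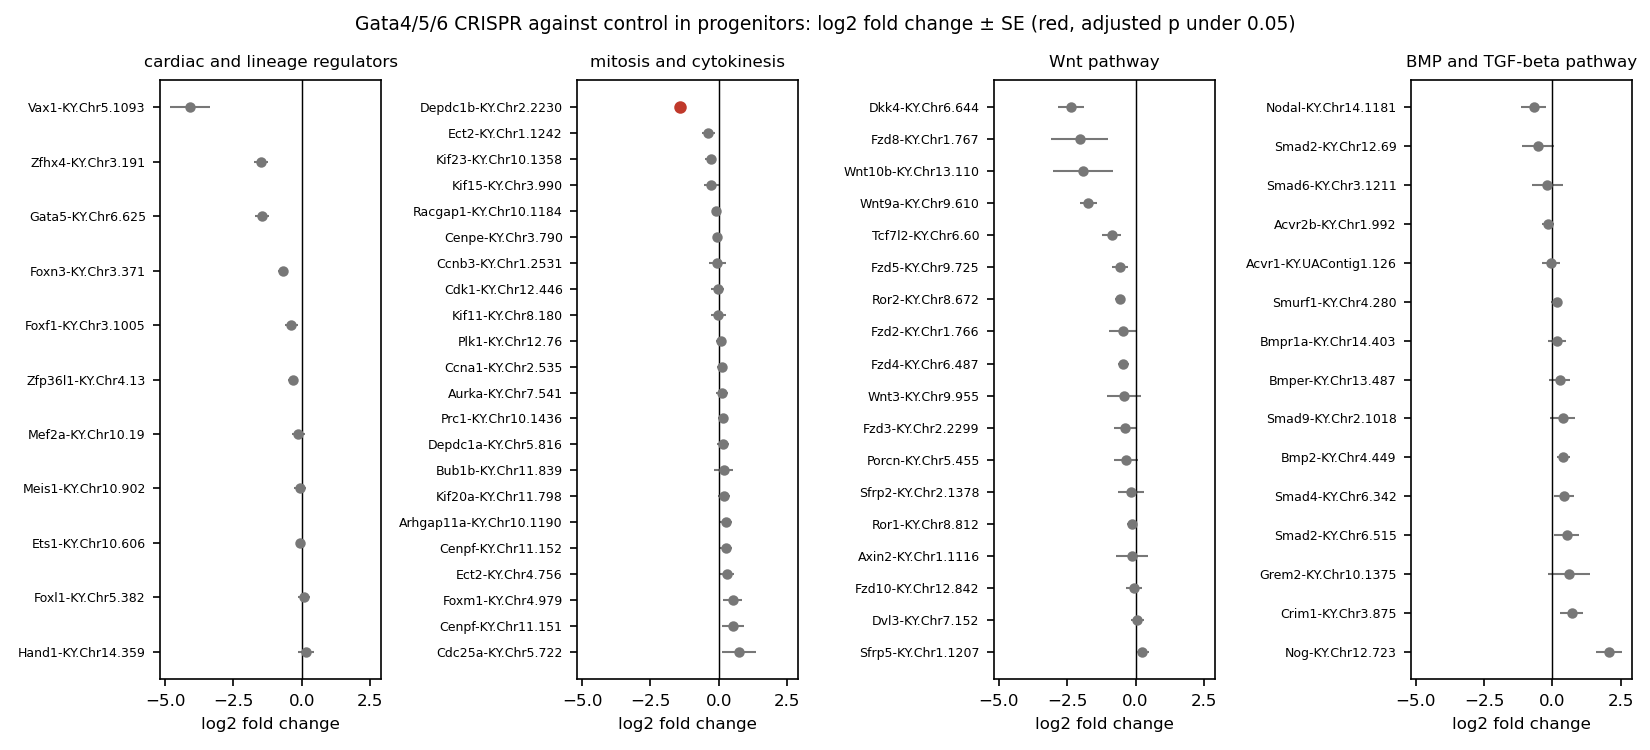
Log2 fold change of Gata4/5/6 CRISPR against control in progenitors (x axis) with SE as bars for each tested member of 4 gene lists, ordered by value. Depdc1b at -1.41 is the 1 member past the adjusted threshold (red). Of the Wnt pathway members 16 of 18 lie below 0, against 3406 of 6744 genes tested. The lists were chosen with earlier results of these data known, so such counts are no test.

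Apart from Depdc1b, no gene of mitosis and cytokinesis passed the test. Cyclin A (Ccna1-KY.Chr2.535) had 971 and 972 CPM in control and 1168 and 913 in Gata4/5/6 CRISPR (0.11 ± 0.16). The mitotic kinase Plk1-KY.Chr12.76 had 663 and 754 against 736 and 761 (0.10 ± 0.18). The kinetochore motor Cenpe-KY.Chr3.790 and the cytokinesis RhoGAP Racgap1-KY.Chr10.1184 stood at -0.07 ± 0.15 and -0.09 ± 0.16. Of 22 tested members of the mitosis and cytokinesis list 1, Depdc1b, was called lower and 0 higher. Depdc1b is the only member outside -0.39 to 0.76. The median was 0.11, but it was -0.030 without library 1 of Gata4/5/6 CRISPR and -0.034 without library 1 of both conditions, against 0.20 without library 2 of Gata4/5/6 CRISPR or of both.

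Genes of G1-S and DNA replication gave 0 calls among 15 members, with 0 at an unadjusted p under 0.05 in either direction, and a median of 0.03 that was below 0 without library 1 of control (-0.029), library 2 of Gata4/5/6 CRISPR (-0.20) or library 2 of both (-0.14), and 0.10 without library 2 of control and 0.091 without library 1 of Gata4/5/6 CRISPR. The lowest value was that of cyclin D (Ccnd2-KY.Chr2.2306), at 700 and 826 CPM in control and 540 and 639 in Gata4/5/6 CRISPR (-0.35 ± 0.21). Cyclin E (Ccne1-KY.Chr13.218) had 1064 and 1076 against 913 and 863 (-0.25 ± 0.16), and neither gene overlapped between groups. Of the 15 members, 5 did not overlap on the lower side and 3 on the higher side, against 18.6% and 15.1% of all genes. The replication licensing gene Cdc6-KY.UAContig1.122 stood at 0.18 ± 0.17 and E2f3-KY.Chr2.1579 at 0.13 ± 0.19.

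In the FGF-MAPK list, the feedback inhibitor Spry2-KY.Chr2.1353 had 96.3 and 118 CPM in control and 196 and 162 in Gata4/5/6 CRISPR (0.73 ± 0.22, edgeR adjusted p = 1.0). Both Gata4/5/6 CRISPR sums were higher. The ligand Fgf4-KY.Chr1.1891 stood at 0.30 ± 0.23, the kinase Mapk3-KY.Chr6.139 at 0.17 ± 0.26 and the phosphatase Dusp7-KY.Chr5.344 at -0.34 ± 0.21. Of 8 tested members 0 were called, with 0 lower and 1 higher at an unadjusted p under 0.05, and the median was 0.12, or -0.020 without library 1 of Gata4/5/6 CRISPR. Leaving out library 1 of control or of both gave 0.24 and 0.22. Of 7 tested Notch and Hedgehog members 0 were called, with 0 at an unadjusted p under 0.05, and the median was 0.05. Within the libraries the median log2 ratio was below 0, at -0.28 in library 1 and -0.25 in library 2. Their most abundant members, the Notch target homologue Hes1-KY.Chr3.580 (0.07 ± 0.31) and Hes1-KY.Chr1.28 (0.67 ± 0.42), overlapped between groups, as did the Hedgehog receptor Ptch1-KY.Chr5.727 (0.05 ± 0.31) and the Notch ligand regulator Mib1-KY.Chr7.678 (0.11 ± 0.32).

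The matrix and adhesion genes that were abundant in progenitors had values near 0. The laminins Lama3-KY.Chr2.933 and Lamb2-KY.Chr13.155 and the collagen Col4a1-KY.Chr1.1557 had control levels of 1900 to 2379 CPM and log2 fold changes of 0.09 ± 0.15, 0.14 ± 0.14 and 0.01 ± 0.13. The protocadherin Pcdh18-KY.Chr9.393 stood at -0.03 ± 0.16. The tight junction gene Cldn1-KY.Chr11.160 was lower in both Gata4/5/6 CRISPR sums, with 265 and 431 CPM in control and 98.1 and 142 in Gata4/5/6 CRISPR (-1.47 ± 0.54, edgeR adjusted p = 1.0), and was called with only the control and Gata4/5/6 sums in the fit (adjusted p = 0.0123). The integrin Itga6-KY.Chr4.412 had 19.3 and 16.7 CPM in control and 68.7 and 43.0 in Gata4/5/6 CRISPR (1.57 ± 0.54, edgeR adjusted p = 1.0). Both were chosen after their values were seen. Of 27 tested members 0 were called, with 1 lower and 1 higher at an unadjusted p under 0.05. The value was above 0 for 22 of the 27, against 3338 of 6744 genes tested. The groups did not overlap on the higher side for 11 (15.1% over all genes). The median was 0.11, or 0.23 without library 2 of Gata4/5/6 CRISPR, 0.18 without library 2 of both and 0.064 without library 1 of both.

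Of 32 tested genes that the study screened as maturation candidates, 1 was called lower (Depdc1b) and 0 higher, and without the shared barcodes 2 were called, Depdc1b and Dkk4. At an unadjusted p under 0.05, 4 were lower and 1 higher, and the groups did not overlap on the lower side for 12 and on the higher side for 4, against 18.6% and 15.1% of all genes. The median was -0.04, and it ran from -0.33 without library 1 of both conditions to -0.024 without library 2 of control. The study chose that list from genes that peak late in progenitors, narrowed by cardiopharyngeal markers and by molecular class. Its most abundant members, the ubiquitin ligase adaptor Asb2-KY.Chr7.1211 and the splicing factor Nova1-KY.Chr11.824, stood at 0.09 ± 0.18 and 0.03 ± 0.18.

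Tested markers that the gate did not use gave 0 calls, and 0 at an unadjusted p under 0.05, in the ATM list (8 genes, median 0.06), the progenitor list (5, median 0.02) and the list of other tissues (3, median 0.03). The troponin Tnnt2-KY.Chr4.1167 had 1636 and 1524 CPM in control and 2400 and 1796 in Gata4/5/6 CRISPR (0.42 ± 0.36). Myosin heavy chain Myh2-KY.Chr3.12, troponin Tnni1-KY.Chr11.476 and creatine kinase Ckm-KY.Chr7.313 stood at 0.37 ± 0.26, -0.08 ± 0.29 and -0.30 ± 0.31. Reads of Myh2-KY.Chr3.12 may have been divided with its neighbouring copies, so its value is uncertain. The notochord marker Tln2-KY.Chr3.779 and the neural marker Celf3-KY.Chr6.59 stood at 0.03 ± 0.16 and 0.15 ± 0.26. The epidermal gene Epi1-KY.Chr1.2380 had 7 and 128 UMIs in control and 2 and 10 in Gata4/5/6 CRISPR.

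Other genes of small p included Pctp-KY.Chr10.1029, a phosphatidylcholine transfer protein. It had 634 and 866 CPM in control and 245 and 342 in Gata4/5/6 CRISPR (-1.31 ± 0.25, edgeR adjusted p = 0.169), and it was called by DESeq2 (adjusted p = 0.0191) and without the shared barcodes (edgeR adjusted p = 0.0171). The unnamed model KY.Chr5.1020 had 81.9 and 94.5 against 14.7 and 21.5 CPM (-2.16 ± 0.38, adjusted p = 0.142, and 0.0202 without the shared barcodes). Cyp2u1-KY.Chr5.144, a cytochrome P450, had 344 and 345 against 88.3 and 159 CPM (-1.38 ± 0.28, adjusted p = 0.228). All 3 were lower in both Gata4/5/6 CRISPR sums.

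On the higher side the smallest p was that of KY.Chr11.1044, with 36.9 and 79.5 CPM in control and 182 and 169 in Gata4/5/6 CRISPR (1.54 ± 0.32, edgeR adjusted p = 0.267, and 0.0446 without the shared barcodes). Mafa-KY.Chr12.532, a bZIP transcription factor, had 35.3 and 36.8 against 73.6 and 103 CPM (1.34 ± 0.31), and the kinase Pim1-KY.Chr1.1680 had 43.3 and 39.3 against 88.3 and 79.4 (1.02 ± 0.26). In each, both Gata4/5/6 CRISPR sums were higher than both control sums, but none passed the threshold with all 8 sums. Tex45-KY.Chr2.1296, Bckdhb-KY.Chr12.792 (a branched-chain keto acid dehydrogenase subunit), Oprk1-KY.Chr3.1329 (a G protein-coupled receptor) and Tpm3-KY.Chr2.541 (a tropomyosin) stood at 2.32 ± 0.60, 0.80 ± 0.22, 2.547 ± 0.75 and 1.29 ± 0.40, with adjusted p of 0.724 to 1.0.

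A few cells carried some of the higher values. Troponin C (Tnnc1-KY.Chr8.329) had 393 and 243 CPM in control and 947 and 761 in Gata4/5/6 CRISPR (1.44 ± 0.43, edgeR adjusted p = 1.0), and 1 cell held 149 of 193 UMIs in library 1 and 1 cell 236 of 460 in library 2. Its UMIs were found in 100% and 96.3% of control tail muscle cells, against 63.6% and 67.2% of control progenitors. For KY.Chr2.772, 32 of the 33 Gata4/5/6 CRISPR UMIs lay in library 1, in 2 cells, against 1 UMI in control. The ratio was 74.2 (counting interval 12.43 to 3020). For Tex45, 1 Gata4/5/6 CRISPR cell held 11 of 12 UMIs in library 1 and 1 cell 12 of 30 in library 2. For Nog, 1 Gata4/5/6 CRISPR cell held 11 of 20 UMIs in library 2, while in library 1 no cell held more than 4 of 14.

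Tail muscle cells of the same conditions and libraries served to ask whether a difference was particular to progenitors. They numbered 26 and 82 in control and 20 and 61 in Gata4/5/6 CRISPR (muscle genes at least 2% of UMIs and at most 2 UMIs of the progenitor genes). The interaction of class and condition was called for 2 of 7033 genes (0.0284%), KY.Chr5.531 and Wnt9a, with 307 (4.37%) at an unadjusted p under 0.05. Wnt9a had 153 and 141 CPM in control tail muscle and 139 and 161 CPM in Gata4/5/6 CRISPR tail muscle, while it was lower in progenitors, and the difference between the effects was -1.86 ± 0.29 (edgeR adjusted p = 0.0368). For KY.Chr5.531 it was -4.31 ± 0.64 (adjusted p = 0.0368). That gene stood at background level in control tail muscle, so a fall there could hardly be seen. Its interaction cannot tell whether the effect is particular to progenitors. Depdc1b had 2.67 to 23.0 CPM and Gata4/5/6 at most 4 CPM in tail muscle, and their interactions did not pass (-1.07 ± 0.54 and 1.31 ± 1.05). Control tail muscle held 2 and 61 UMIs of Depdc1b and 3 and 7 of Gata4/5/6. At levels so low, these interactions cannot tell whether either effect is particular to progenitors.

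The other CRISPR conditions share the control sums, so their values are set side by side without a test of overlap. Depdc1b had 450 and 464 CPM in Foxf CRISPR, above both Gata4/5/6 CRISPR sums, and 701 and 765 in Foxtun4 CRISPR. KY.Chr5.531 had 20.6 and 17.6 CPM in Foxf CRISPR and 65.7 and 286 in Foxtun4 CRISPR. Gata4/5/6 itself had 49.6 and 58.3 CPM in Foxf CRISPR and 350 and 274 in Foxtun4 CRISPR. Dkk4 stood apart, with 244 and 111 CPM in Foxf CRISPR and 10.95 and 16.8 in Foxtun4 CRISPR, and Vax1 had 57.8 and 29.8 CPM in Foxf CRISPR against 0 and 3.31 in Gata4/5/6 CRISPR.

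When these genes are normally on was read from the time series library, over barcoded cells with muscle genes under 1% of UMIs, at time points with at least 20 cells (28 cells for 7 hpf, then 241, 138, 112 and 89 for the hours from 10 to 13). There is 1 library and no test. No progenitor markers were asked for, so these cells are a wider group than the progenitors above: at 12 hpf Foxf stood at 92.2 CPM in them, against 572 and 460 in control progenitors, and KY.Chr5.531 at 6973 against 241 and 407. A change over time and a change in the mix of cells cannot be told apart here. Gata4/5/6 went from 0 CPM at 7 hpf to 160 at 10, 203 at 11, 126 at 12 and 83.6 at 13 hpf. Depdc1b was highest later, at 133, 291, 449, 501 and 391 CPM. Zfhx4 stood at 7.82 CPM at 7 hpf and 223 at 12 hpf, Wnt9a at 49.5 and 193, and Pctp at 294 and 955. KY.Chr5.531 went from 341 to 975 CPM between 7 and 10 hpf, and to 6973 CPM by 12 hpf. Among the 10 lower genes of smallest p, 7 were over 2-fold higher from 10 to 13 hpf than at 7 hpf. Of the 10 higher genes 6 were, against 15.4% of all tested genes with at least 20 UMIs there. Both sets were picked by small p in 12 hpf progenitors, which favours genes that are on at that age. The shares are therefore partly built in and are no test.

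**Figure D4:**
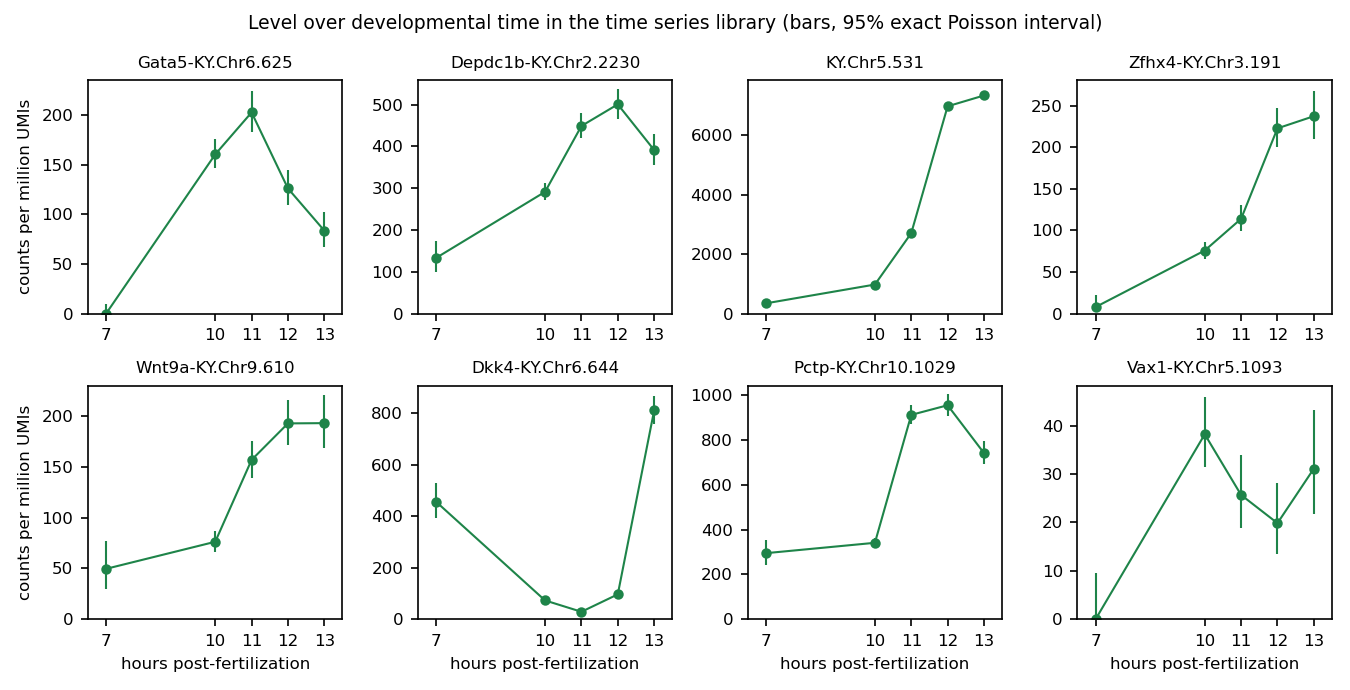
CPM (y axis) against hours post-fertilization (x axis) for the same 8 genes in cells of low muscle content of the time series library, with 95% exact Poisson intervals as bars. Gata5 is highest at 11 hpf (203 CPM) and Depdc1b at 12 hpf (501 CPM), while Dkk4 is lowest at 11 hpf.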

How the data were processed

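UMI counts per gene and cell were deposited without normalization by the authors, who ran Cell Ranger 3.0.1 on KY2019 models to which the 21 barcodes had been appended as extra features. Cells were assigned and gated as the report says, no doublet caller was run, and UMIs were summed per library and condition. The quasi-likelihood test of edgeR 4.0.16 in R 4.3.3 was run over all 8 sums after filterByExpr and TMM scaling, with Benjamini-Hochberg adjustment, and SEs were derived from its F statistics. The script was tested on simulated counts.

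Sums with the same number come from 1 pooled library. Their deviations from the condition means correlated at 0.07 between control and Gata4/5/6 CRISPR over 6744 genes, and at -0.22 to 0.10 over all 6 pairs of conditions. The fit had no library term.

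Named genes are those the study names for this experiment, called genes, the genes of smallest p up to 10 in each direction, and up to 4 members of highest CPM from each list. Members and lists were chosen with earlier results of these data known, and the tail muscle class and the fit without shared cell barcodes were set after seeing the data. Alternatives covered DESeq2 1.42.0, other size factors, filters, gates, assignment rules, a library block and leaving out sums. A gene list of the design is not reported here.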

Additional observations from a re-analysis of the deposited data

Results flagged for a closer look

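The effect of Gata4/5/6 CRISPR differed between progenitors and tail muscle for KY.Chr5.531 and Wnt9a-KY.Chr9.610, by an interaction test in edgeR, with log2 differences of -4.31 and -1.86. Both genes were lower in progenitors, and in tail muscle both stood near control, at log2 fold changes of -0.12 and 0.11. Control tail muscle held only 17 and 28 UMIs of KY.Chr5.531, a background level that left little room for a fall. For that gene the test cannot tell whether the effect is particular to progenitors. The tail muscle class was set after seeing the data.

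KY.Chr5.531 was also found in cells that no comparison uses. Cells in the progenitor gate without an assigned barcode pair, 11 in library 1 and 37 in library 2, had 1424 CPM (1325 to 1529) and 3259 CPM (3137 to 3385) of this gene, above the 241 and 407 CPM of control progenitors. The same cells had 9.31 and 40.2 CPM of Gata4/5/6 and 70.8 and 102.2 CPM of Depdc1b, below control. Of the 11 cells, 3 carry a cell barcode found in both libraries, and of the 37, 1 does. The deepest of them, in library 1 and with a shared cell barcode, holds 330966 of the 537051 UMIs of the 11 cells. The library 1 values are therefore weighted to that 1 cell, and their intervals do not cover spread between cells. A UMI of KY.Chr5.531 was found in 6 of the 11 and 28 of the 37 cells.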

How the results depend on the processing

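The count of 2 called genes became 16 with only the control and Gata4/5/6 sums, 53 with no filter on low counts, 15 with muscle genes under 0.5% and 10 without the shared cell barcodes, and 0 to 1 when 1 sum was left out, where a lone sum is assumed to vary like the other groups. The library as replicate block left 2 calls with all 8 sums and gave 55 with the 4 sums of the comparison. It changed neither the interaction nor the Gata4/5/6 or Depdc1b call with all 8 sums.

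Gata4/5/6 passed the threshold at -1.50 (4 sums), -1.49 (replicate block on 4 sums), -1.47 (no filter), -1.49 (muscle under 0.5%) and -1.49 (no shared barcodes), with adjusted p from 3.46e-05 to 1.0 over all settings, and ranged from -1.82 to -1.004 when sums were left out. Depdc1b missed it at -1.25 without progenitor marker UMIs (adjusted p = 0.0579) and at -1.57 to -1.22 when a sum was left out. KY.Chr5.531 ranged from -4.77 to -3.997 when sums were left out.

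The Wnt median was -0.24 without marker UMIs and -0.52 with muscle under 2%. That of Notch and Hedgehog was 0.018 (4 sums), -0.0060 (block on 4 sums), 0.078 (DESeq2), -0.12 (no marker UMIs), 0.012 (muscle under 0.5%) and -0.041 (under 2%), and that of junction and matrix 0.027 (under 0.5%). With sums left out, medians ran from -0.61 to -0.32 for Wnt, -0.28 to 0.064 for Notch and Hedgehog, 0.064 to 0.23 for junction and matrix, -0.45 to -0.20 for cardiac and lineage regulators, 0.030 to 0.41 for BMP and TGF-beta, -0.034 to 0.20 for mitosis and cytokinesis, -0.20 to 0.10 for G1-S, -0.020 to 0.24 for FGF-MAPK and -0.33 to -0.024 for the maturation genes. Causes were not tested. Of 63 named genes, 25 changed sign under some setting, and of the 20 of smallest p only Dkk4 did. Of the 4 sums compared, library 1 of Gata4/5/6 CRISPR, with 11 cells, has the least depth.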

Other observations

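Control progenitors of the CRISPR libraries and cells of low muscle content of the time series, both labelled 12 hpf, are from separate libraries and gates and were not tested against each other. Foxf (Foxf1-KY.Chr3.1005) had 572 and 460 CPM in the CRISPR controls, and 535 CPM at 10 hpf and 92.2 CPM at 12 hpf in the time series. KY.Chr5.531 had 241 and 407 CPM in the CRISPR controls, and 975 CPM at 10 hpf and 6973 CPM at 12 hpf in the time series. For Depdc1b the values were 597 and 775 CPM against 501 CPM at 12 hpf, and for Zfhx4 228 and 250 CPM against 223 CPM.

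With only the control and Gata4/5/6 sums in the fit, 3 more genes chosen after their values were seen were called lower. The ETS factor Erg-KY.Chr4.259 had 25.7 and 33.5 CPM in control and 0 and 1.65 CPM in Gata4/5/6 CRISPR (edgeR adjusted p = 0.0352), a ratio of control to Gata4/5/6 CRISPR of 24.9 (counting interval 4.29 to 1001). The unnamed model KY.Chr12.757 had 41.7 and 49.4 CPM against 4.91 and 1.65 CPM (adjusted p = 0.0068), a ratio of 18.9 (5.07 to 159), and KY.Chr6.317 had 101 and 141 CPM against 9.815 and 41.4 CPM (adjusted p = 0.0245). With all 8 sums their adjusted p was 0.724, 0.469 and 1.0.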
